A study of Mus musculus with 9 samples.

Results

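Amino acids enter and leave cells through membrane carriers, and those of 7 solute carrier families (Slc1a, Slc3a, Slc6a, Slc7a, Slc36a, Slc38a and Slc43a) were followed in mouse bone marrow cells sorted as megakaryocyte-erythroid progenitors (MEP), the progenitors of red cells and platelets. Members were chosen by gene symbol, as the rows whose symbol starts with one of these family names followed by a number. Of 17769 genes in the deposited counts, 51 rows matched. Of these, 49 are transporter genes or their partner chains. The other 2, Slc7a6os and Slc36a1os, are opposite-strand genes that carry a transporter's name and were kept apart. Counts sufficed for a test in 30 of the 49 transporters.

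The study compared 2 mutant alleles of Jak2, the kinase below the erythropoietin and thrombopoietin receptors, with WT marrow. In E12 mice an allele of exon 12 was combined with SclCre, and cells were taken 6 weeks after tamoxifen. In VF mice the V617F allele was combined with SclCre, and cells were taken 12 weeks after tamoxifen, as they were from WT mice. SclCre is a recombinase placed under an enhancer of the Scl gene that is active in hematopoietic stem and progenitor cells, and tamoxifen switches it on. All groups share the C57BL/6N background and 5 injections of tamoxifen. The labels do not say whether the WT mice carried SclCre, and they give no age. Each group has 3 libraries, made with Smart-Seq2, a full-length method that does not keep the strand. They are called by the numbers of the labels, E12 1, 2 and 5, VF 1, 2 and 3, and WT 50, 51 and 52. Nothing in the labels says that libraries of a group came from separate mice, so p-values measure the spread between these libraries, which may be technical.

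Levels are given as CPM, the counts of a gene scaled to library size by TMM factors. Levels of different genes are compared only as CPM per kilobase of the deposited gene length. Fold changes are log2 ratios of the first group named over the second, with their standard error (SE), from edgeR's quasi-likelihood test across 13608 genes. A gene is said to have risen or fallen where its Benjamini-Hochberg adjusted p was under 0.05. E12 also differs from VF and WT in its time after tamoxifen, so allele and time cannot be told apart in any comparison of E12.

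Amino acid carriers work in a few modes. Slc3a2 (CD98) is a single-span heavy chain that brings light chains of the Slc7a family to the cell surface, where they swap one amino acid for another. Slc1a5 and the Slc38a carriers load cells with glutamine and other small neutral amino acids, partly with sodium, and the exchangers then trade these for leucine and other essential amino acids. On the lysosome, carriers such as Slc38a9 and Slc36a1 take part in amino acid sensing by mTORC1. Several of these genes, Slc7a11 and Slc7a5 among them, are known targets of ATF4, the transcription factor that cells raise when amino acids run short, and red cell precursors draw heavily on glycine for heme.

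Promoters are shown for 3 members that the results below turn on, Slc38a5 for the widest gap between the mutants and Slc7a11 and Slc1a4 for their ATF4 element. Each runs from 250 bases before to 50 bases after a start site and is printed on the gene's strand, from RefSeq's table for build GRCm38.p6. Capitals mark, on either strand, the ATF4 composite element TGATGCAA and words bound by GATA factors. AGATAA was the word searched first, and the variants AGATAG as well as TGATAA as well as TGATAG were added later, with results in view; no capitals overlap.
Slc38a5 (chrX:8271131-8271430, plus strand): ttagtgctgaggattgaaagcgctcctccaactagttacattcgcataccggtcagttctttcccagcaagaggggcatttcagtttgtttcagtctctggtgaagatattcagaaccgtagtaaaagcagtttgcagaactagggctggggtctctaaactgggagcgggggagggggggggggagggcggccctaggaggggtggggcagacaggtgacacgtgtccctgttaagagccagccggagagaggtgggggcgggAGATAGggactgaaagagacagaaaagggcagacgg
Slc7a11 (chr3:50443564-50443863, minus strand): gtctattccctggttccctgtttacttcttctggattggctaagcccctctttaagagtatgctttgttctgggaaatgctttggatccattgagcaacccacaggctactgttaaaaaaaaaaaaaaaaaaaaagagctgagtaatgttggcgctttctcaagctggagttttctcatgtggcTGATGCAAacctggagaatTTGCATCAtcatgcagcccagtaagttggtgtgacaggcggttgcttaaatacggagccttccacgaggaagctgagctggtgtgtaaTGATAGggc
Slc1a4 (chr11:20332664-20332963, minus strand): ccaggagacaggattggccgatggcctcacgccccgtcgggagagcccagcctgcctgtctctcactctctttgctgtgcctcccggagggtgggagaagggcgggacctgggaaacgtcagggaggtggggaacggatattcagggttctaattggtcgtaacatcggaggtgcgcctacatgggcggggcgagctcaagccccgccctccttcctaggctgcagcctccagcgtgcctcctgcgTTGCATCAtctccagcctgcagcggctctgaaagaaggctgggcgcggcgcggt

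The table holds promoters for 37 of the 51 rows, 55 in all, because some genes have several starts. The ATF4 element was present in 4 of these 55 promoters (7.27%), against 294 of 32851 promoters in the table (0.895%). Besides Slc7a11, which holds 2 copies, and Slc1a4, the matches lie in 2 overlapping promoters of Slc7a7. Both of these hold the same genomic site, so it is counted in each. A GATA word was present in 17 of the 55 (30.9%), against 29.8% of all promoters. A match is a description of letters and no evidence of binding.

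Total counts ran between 20328414 and 23499914 for E12 libraries, between 19256431 and 21331168 for VF libraries and between 33838681 and 39736096 for WT libraries. Genes with no count made up 12.4% to 18.7% of all genes in E12 libraries, 10.7% to 12.4% in VF and 27.2% to 30.1% in WT. Genes at 0 in WT are to be read beside these shares. The WT libraries are numbered apart from those of the mutants in the labels, which name no batch. Whether a difference from WT goes with the allele or with the set of libraries cannot be told apart. They also hold more short transcripts. Genes under 1 kb took 6.92% to 8.79% of the counts in E12, 8.24% to 8.97% in VF, and 27.9%, 14.1% and 11.2% in WT 50, 51 and 52. WT 50 stands apart further, with a TMM factor of 0.456, against 0.841 and 0.869 in the other WT libraries. Each comparison with WT was therefore repeated with offsets that level the relation of counts to gene length within each library, and those values are given where they change a call.

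Markers of the cell types a marrow sort could hold also differed in level between the groups. Over 15 erythroid markers the summed level was 9120 to 12730 CPM for E12, 1340 to 1996 for VF and 23250 to 37177 for WT. Over 13 megakaryocyte markers it was 508 to 624 CPM in E12, 2376 to 3047 for VF and 69.1 to 198 in WT, where the defining Itgb3 was at 0. The 10 markers of stem and multipotent progenitors gave 321 to 562 CPM in E12, 1493 to 1559 for VF and 22.7 to 36.7 in WT, with Tek, Mecom and Procr at 0 in WT. Cd34, which an MEP gate normally takes as low, had 226, 288 and 119 CPM in E12, 675, 671 and 633 in VF, and 4.97, 2.77 and 3.16 in WT. Neutrophil markers summed to 1782 to 2255 CPM for E12, 7008 to 12965 for VF and 369.5 to 5486 for WT. Monocyte markers gave sums of 195 to 407 CPM for E12, 539.6 to 706 for VF and 71.5 to 832 for WT. B cell markers gave 28.3 to 634 CPM for E12, 128 to 254 for VF and 328 to 3771 for WT, T and NK cell markers 151 to 249.8 for E12, 519.5 to 615 for VF and 148 to 1169 for WT, and mast cell, basophil and eosinophil markers 44.1 to 171 for E12, 312 to 404 for VF and 28.6 to 192 for WT. The part of these differences in the results below was not tested, and in such bulk samples a smaller share of cells of a type and less RNA per cell cannot be told apart.

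Slc38a5 (SNAT5), a sodium-coupled carrier that can load or release glutamine, histidine, serine and glycine, showed the widest difference between the mutants. It had 333, 192 and 244 CPM in E12, 4.73, 20.2 and 12.5 CPM in VF, and 302, 1008 and 900.5 CPM in WT. All VF libraries lay far below all others, while E12 1 lay above WT 50 and the other E12 libraries lay below all WT libraries. Slc38a5 fell in VF against WT, with a log2 change of -5.89 (SE 0.70, edgeR adjusted p = 0.00048). In E12 against WT the change was -1.52 (SE 0.58, edgeR adjusted p = 0.061) and was not called, but it was called lower with RLE factors (-1.69, adjusted p = 0.038), without a filter (0.041), by DESeq2 (0.0079), without VF 1 (0.046), without WT 50 (-2.04, 0.0064) and without WT 50 and E12 5 together (0.027). It was higher in E12 than in VF by 4.36 (SE 0.65, edgeR adjusted p = 0.014), the one transporter called between the mutants in the fit of all 9 libraries. That call was lost without VF 1 (adjusted p = 0.07), VF 3 (0.1), E12 1 (0.071) or E12 5 (0.054), with changes between 3.97 and 4.90 over all single libraries left out. The gene lies at chrX:8271381-8280179 and is short (1865 bases), and the length offset left the values at -5.83, -1.38 and 4.44. The erythroid marker sum moves with it, being lowest in VF and highest in WT. Of the 15 single markers, 4 rose and 4 fell in E12 against WT, beside 23.9% and 18.1% of all genes. With the length offset 2 rose and 5 fell, beside 12% and 23.3% of all genes.

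**Figure D1:**
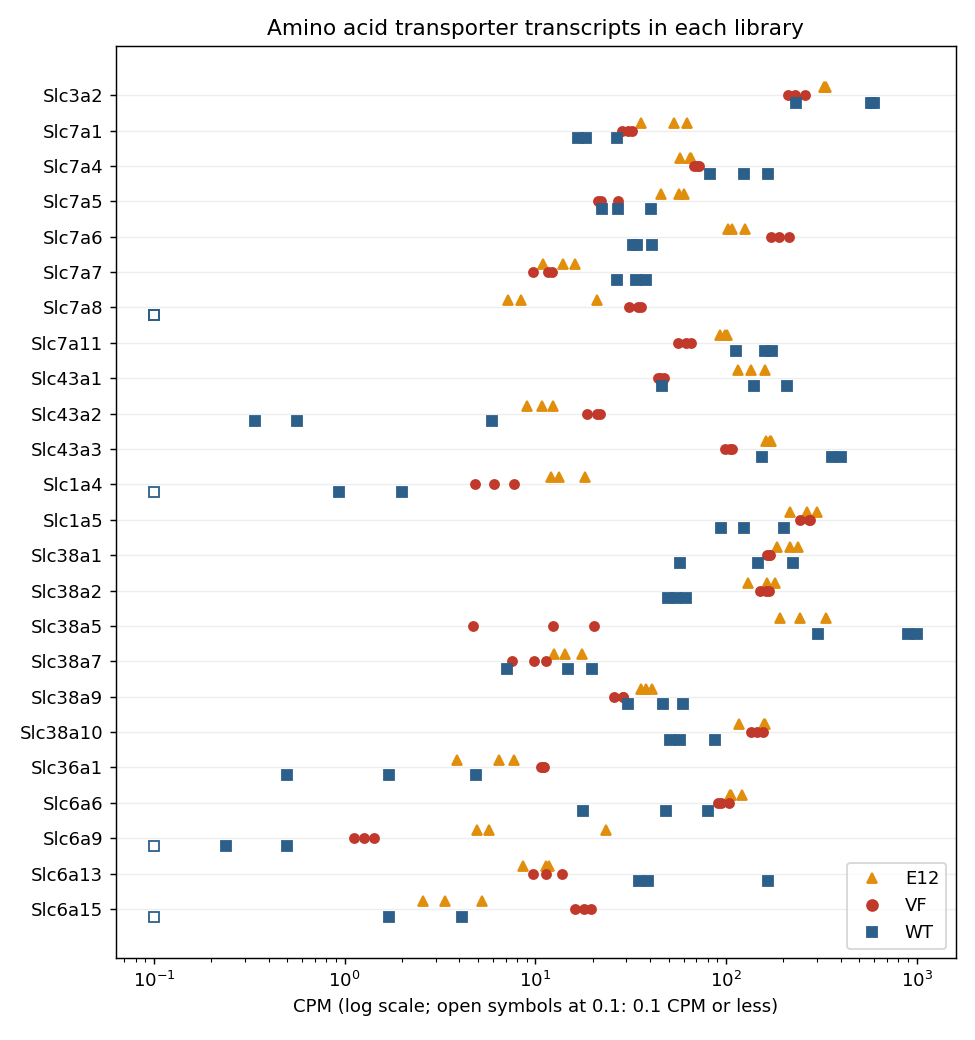
Level of the 24 transporters that averaged at least 10 CPM in a group, in CPM on a log axis, with 1 symbol per library (triangles E12, circles VF, squares WT; open symbols stand for 0.1 CPM or less). Slc38a5 is 4.73 to 20.2 CPM in VF and over 190 CPM in all E12 and WT libraries, while Slc7a8 is at 0 in WT.

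Of the partners in the CD98 system, the heavy chain Slc3a2 (chr19:8706882-8723369) had 334, 330.5 and 326.5 CPM in E12, 259.6, 229 and 212 CPM in VF, and 234, 596 and 573 CPM in WT. E12 lay between WT 50 and the other WT libraries, and VF straddled WT 50. Slc3a2 fell in VF against WT (-1.0, SE 0.35, edgeR adjusted p = 0.04), and this call was lost without any one of the VF or E12 libraries (adjusted p from 0.064 to 0.13). On the deposited log2 levels the VF value turned to 0.17 (limma adjusted p = 0.75). In E12 against WT the change was -0.50 (SE 0.35, adjusted p = 0.27). With the length offset both mutants were called lower, at -1.34 (adjusted p = 0.0024) in E12 and -1.91 (adjusted p = 0.0002) in VF.

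The light chains changed in opposite directions. Slc7a6 (y+LAT2, chr8:106168219-106198714), which exchanges cationic for neutral amino acids, had 108, 125 and 103 CPM in E12, 213, 189.9 and 172 CPM in VF, and 34.2, 40.8 and 32.6 CPM in WT. The 3 groups do not overlap. It rose by 1.64 (SE 0.21, edgeR adjusted p = 0.0013) in E12 and by 2.42 (SE 0.22, adjusted p = 0.00018) in VF, and with the length offset the VF call stayed (1.09, adjusted p = 0.0054) while the E12 call did not (0.38, adjusted p = 0.25). Slc7a7 (y+LAT1, chr14:54369442-54420068), which carries out the same exchange, had 16.1, 10.9 and 13.9 CPM in E12, 12.2, 11.6 and 9.69 CPM in VF, and 33.6, 38.2 and 26.7 CPM in WT. Every mutant library lay below every WT library. Slc7a7 fell, with changes of -1.27 (SE 0.29, edgeR adjusted p = 0.0086) in E12 and -1.56 (SE 0.29, adjusted p = 0.0028) in VF, and it shares 232 exon bases with Oxa1l on the other strand, which fell as well (-0.76 and -1.08).

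The ratio of Slc7a6 to Slc7a7, both per kilobase, was 4.51, 7.70 and 4.95 in E12, 11.7, 11.01 and 11.9 in VF, and 0.684, 0.717 and 0.822 in WT. The order of these paired carriers was thus reversed in every mutant library relative to every WT library, in levels without the length offset.

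Slc7a8 (LAT2, chr14:54722215-54781886), an exchanger of neutral amino acids and thyroid hormone, was read only in the mutants. It had 8.39, 21.1 and 7.21 CPM in E12, 31.0, 34.4 and 35.7 CPM in VF, and no count in any WT library. Taking 3 counts over the 3 WT libraries as the floor, Slc7a8 was at least 332-fold higher in E12 and at least 893-fold higher in VF (edgeR adjusted p = 0.00066 and 0.00021). Without E12 2, the highest E12 library, the fitted log2 value in E12 was 10.66, against 11.31 with it, and the call stayed; fitted values against 0 counts are no bounds.

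Slc7a5 (LAT1, chr8:121881146-121907686), the main leucine carrier of growing cells, had 60.3, 56.7 and 45.7 CPM in E12, 27.2, 22.2 and 21.2 CPM in VF, and 40.5, 22.4 and 27.1 CPM in WT. E12 lay above every other library and VF overlapped WT. Its rise in E12 against WT (0.86, SE 0.28, edgeR adjusted p = 0.034) was lost without any 1 library except WT 50 (adjusted p from 0.051 to 0.25), and with the length offset the value was -0.42 (adjusted p = 0.43). In VF against WT the value was -0.35 (adjusted p = 0.32), and -1.68 (adjusted p = 0.0069) with the length offset. In E12 against VF it was 1.20 (SE 0.28, adjusted p = 0.054).

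Slc7a11 (xCT, chr3:50364936-50499087), which imports cystine for glutathione in exchange for glutamate, had 102, 92.95 and 98.7 CPM in E12, 62.0, 65.2 and 55.8 CPM in VF, and 114, 174 and 160.2 CPM in WT. The groups do not overlap, with VF lowest and WT highest. It fell in VF against WT (-1.29, SE 0.23, edgeR adjusted p = 0.0022). In E12 against WT the value was -0.61 (SE 0.22, adjusted p = 0.053), and -2.01 (adjusted p = 0.00064) with the length offset. With the offset the VF value of this long transcript (9227 bases) was -2.91 (adjusted p = 4.4e-05).

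**Figure D2:**
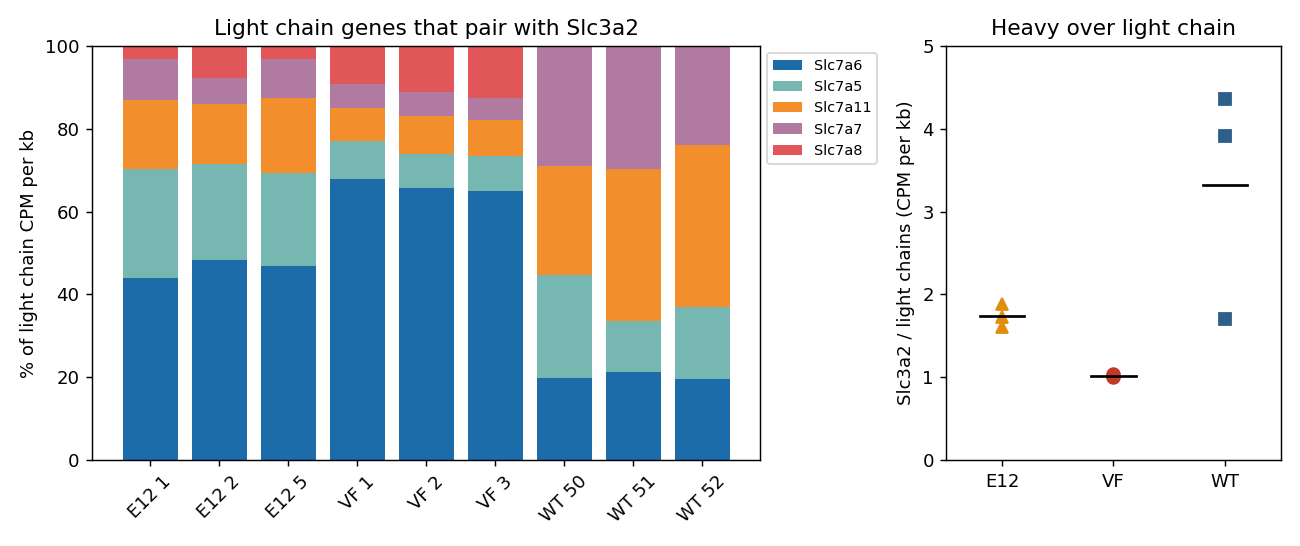
Left, share of each light chain that pairs with Slc3a2 in the summed light chain level (percent of CPM per kb, stacked bars, 1 per library); right, Slc3a2 over that sum (1 symbol per library, line at the group mean). Slc7a6 makes up 44.1% to 48.3% in E12, 65.0% to 67.9% in VF, against 19.7% to 21.3% in WT, and the ratio on the right is 0.998 to 1.04 in VF. Slc7a10, at most 0.169% in any library, is not drawn.

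Summed over the light chains Slc7a5, Slc7a6, Slc7a7, Slc7a8, Slc7a10 and Slc7a11 the level was 65.6, 69.5 and 58.6 CPM per kb in E12, 84.1, 77.5 and 70.8 in VF, and 46.4, 51.4 and 44.5 in WT. Slc3a2 stood at 1.72, 1.61 and 1.89 times this sum in E12, at 1.04, 0.998 and 1.01 times in VF, and at 1.70, 3.92 and 4.36 times in WT. Each VF library lay below every other library, and E12 overlapped WT 50. Slc7a11 made up 16.8%, 14.5% and 18.3% of the sum in E12, 7.999%, 9.12% and 8.54% in VF, and 26.5%, 36.7% and 39.1% in WT. These sums, ratios and shares carry no length offset. With it, VF against WT was -2.91 for Slc7a11, -2.33 for Slc7a7, -1.68 for Slc7a5 and 1.09 for Slc7a6. The higher light chain sum in VF than in WT thus rests on the scaling without the offset.

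Slc3a1 (rBAT, chr17:85028347-85064241), the heavy chain of the cystine carrier of kidney and gut, was low throughout, with 5.00, 2.67 and 2.00 CPM in E12, 3.38, 3.28 and 3.85 CPM in VF, and 0.166, 0.28 and 0.85 CPM in WT. All mutant libraries lay above all WT libraries. It rose in both mutants, by 2.87 (SE 0.75, edgeR adjusted p = 0.015) in E12 and 2.99 (SE 0.75, adjusted p = 0.01) in VF. Without WT 52 the values were 3.52 and 3.65, and without E12 1 the E12 call was lost (adjusted p = 0.053). It shares 601 exon bases with Prepl, a gene of the other strand at 30.4 ± 5.44 CPM in E12, 26.7 ± 1.02 in VF and 14.8 ± 16.8 in WT (SD, n = 3 each), so reads of the pair cannot be told apart there.

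Slc7a1 (CAT1, chr5:148327410-148399904), which takes up arginine, lysine and ornithine without a heavy chain, had 36, 53.5 and 62.7 CPM in E12, 32.1, 28.5 and 30.7 CPM in VF, and 16.7, 18.5 and 26.8 CPM in WT. The 3 groups do not overlap. It rose in E12 against WT (1.29, SE 0.29, edgeR adjusted p = 0.0083), while the VF value was 0.56 (SE 0.29, adjusted p = 0.13). These directions rest on the scaling, since with the length offset the E12 value was -0.10 (adjusted p = 0.76) and VF was called lower (-1.01, adjusted p = 0.0056). Slc7a4 (chr16:17572018-17576890) had 64.9, 65.3 and 57.1 CPM in E12, 67.9, 70.5 and 71.9 CPM in VF, and 82.4, 166 and 124.5 CPM in WT. It lay below WT in all mutant libraries and fell, with changes of -0.99 (SE 0.27, edgeR adjusted p = 0.016) in E12 and -0.83 (SE 0.27, adjusted p = 0.029) in VF. The E12 call was lost without any one E12 library (adjusted p from 0.051 to 0.065) and the VF call without any one VF library or E12 2 (adjusted p from 0.05 to 0.095), while with the length offset both were called, at -2.04 and -1.93. Slc7a4 shares 554 exon bases with P2rx6, which stayed at 0.728 CPM or lower in every group's mean.

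Among the Slc43a carriers, which move large neutral amino acids without sodium or exchange, Slc43a1 (LAT3, chr2:84838855-84863586) had 135, 115 and 159.8 CPM in E12, 47.0, 45.2 and 44.2 CPM in VF, and 46.1, 139.4 and 209.5 CPM in WT. VF overlapped only WT 50. Slc43a1 fell in VF against WT (-1.53, SE 0.46, edgeR adjusted p = 0.021), and the call was lost without any one VF library (adjusted p from 0.064 to 0.071). In E12 against WT it was 0.05 (SE 0.45, adjusted p = 0.94), and without WT 50 and E12 5 together -0.52 (adjusted p = 0.048). In E12 against VF, where no libraries overlap, it was 1.59 (SE 0.46, adjusted p = 0.1), and 1.66 (adjusted p = 0.009) with the length offset.

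Slc43a2 (LAT4, chr11:75529915-75577575) had 10.8, 12.4 and 9.03 CPM in E12, 18.6, 20.9 and 21.8 CPM in VF, and 5.91, 0.561 and 0.34 CPM in WT. The 3 groups do not overlap, though WT 50 stands well above the other WT libraries. It rose in VF against WT (3.19, SE 0.94, edgeR adjusted p = 0.02), with 5.34 without WT 50, 2.41 without WT 51 and 2.36 without WT 52; the call was lost without VF 3 (adjusted p = 0.051) or WT 51 (0.08), and with the length offset (1.37, adjusted p = 0.27). The E12 value was 2.27 (SE 0.91, adjusted p = 0.072). Slc43a3 (chr2:84936545-84958509), a family member that carries purine nucleobases, had 173, 163 and 170.5 CPM in E12, 107, 105 and 99.1 CPM in VF, and 155, 359 and 399.9 CPM in WT. VF lay below all other libraries and fell against WT (-1.55, SE 0.34, adjusted p = 0.0058), while the E12 value was -0.85 (SE 0.33, adjusted p = 0.067), and -1.44 (adjusted p = 0.00084) with the length offset.

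Slc1a5 (ASCT2, chr7:16781334-16798274), the glutamine and small neutral amino acid exchanger, had 217, 266 and 298.5 CPM in E12, 272, 244 and 275 CPM in VF, and 94.7, 125 and 201 CPM in WT. The mutants overlapped each other and lay above WT. Slc1a5 rose by 0.89 (SE 0.31, edgeR adjusted p = 0.041) in E12 and by 0.91 (SE 0.31, adjusted p = 0.034) in VF. Left-out libraries ended the E12 call in all cases but WT 50 and WT 52 (adjusted p from 0.061 to 0.12), and the VF call without any one VF library, E12 2 or WT 51 (from 0.056 to 0.096). Length offsets gave 0.17 (adjusted p = 0.48) and 0.10 (adjusted p = 0.64).

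Slc1a4 (ASCT1, chr11:20302180-20332713), which exchanges serine, alanine and cysteine, had 12.1, 13.3 and 18.2 CPM in E12, 6.08, 4.81 and 7.70 CPM in VF, and 0, 0.934 and 2.01 CPM in WT. The groups do not overlap and E12 was highest. It rose in E12 against WT (3.86, SE 1.04, edgeR adjusted p = 0.017), with 3.21 without WT 50 and 4.61 without WT 52, and the call was lost without E12 5 (adjusted p = 0.052). With the length offset it was 2.82 (adjusted p = 0.039). In VF against WT it was 2.63 (SE 0.99, adjusted p = 0.053).

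In the Slc38a family beside Slc38a5, Slc38a2 (SNAT2, chr15:96687392-96699728), the sodium-coupled carrier that cells raise under amino acid shortage, had 129.8, 164 and 180.0 CPM in E12, 150.3, 161 and 168 CPM in VF, and 61.8, 54.5 and 49.4 CPM in WT. All mutant libraries lay above all WT libraries. It rose by 1.52 (SE 0.22, edgeR adjusted p = 0.0019) in E12 and 1.53 (SE 0.22, adjusted p = 0.00097) in VF. Length offsets gave 0.08 (adjusted p = 0.82) and -0.02 (adjusted p = 0.94).

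Slc38a10 (chr11:120103951-120151351) had 159.4, 158 and 117.5 CPM in E12, 136, 145 and 157 CPM in VF, and 50.7, 57.1 and 87.8 CPM in WT. It too lay above WT in every mutant library and rose by 1.15 (SE 0.27, edgeR adjusted p = 0.0095) in E12 and 1.16 (SE 0.27, adjusted p = 0.0072) in VF, while with the length offset the values were -0.23 (adjusted p = 0.32) and -0.39 (adjusted p = 0.089). Slc38a1 (SNAT1, chr15:96571418-96643438), a glutamine loader, had 215.5, 237 and 186 CPM in E12, 171, 165 and 168 CPM in VF, and 57.6, 146 and 224 CPM in WT. It was not called against WT (0.58, adjusted p = 0.29 in E12; 0.23, adjusted p = 0.66 in VF), and with the length offset VF was called lower (-1.29, adjusted p = 0.0085).

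The lysosomal members of the family showed no call in the fit of 9 libraries. Slc38a9 (chr13:112656189-112738752), the arginine sensor of the lysosome, had 38.3, 40.7 and 35.8 CPM in E12, 26.0, 28.8 and 29.0 CPM in VF, and 47.0, 30.8 and 59.2 CPM in WT. VF lay below all other libraries, with -0.71 against WT (SE 0.27, edgeR adjusted p = 0.051), and the E12 value was -0.26 (adjusted p = 0.47). With the length offset both were called lower, at -1.66 (adjusted p = 0.0018) in E12 and -2.33 (adjusted p = 0.00016) in VF. Slc38a7 (chr8:95835920-95853577), which releases glutamine and asparagine from lysosomes, had 17.5, 14.3 and 12.5 CPM in E12, 9.79, 7.57 and 11.4 CPM in VF, and 7.07, 14.8 and 19.8 CPM in WT. It overlapped WT in both mutants, and was called lower in VF with the length offset (-1.57, adjusted p = 0.0032), against -0.53 (adjusted p = 0.31) without it.

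Slc36a1 (PAT1, chr11:55204322-55236330), a proton-coupled carrier of small amino acids on lysosomes, had 6.44, 7.77 and 3.86 CPM in E12, 10.7, 11.1 and 10.99 CPM in VF, and 0.497, 4.89 and 1.70 CPM in WT. VF was above every other library. It rose in VF against WT (2.20, SE 0.72, edgeR adjusted p = 0.032), with 1.55 without WT 50 and 3.18 without WT 51. The call was lost without any one VF library, E12 1 or WT 52 (adjusted p from 0.052 to 0.09) and with the length offset (0.67, adjusted p = 0.44). The E12 value was 1.34 (adjusted p = 0.15).

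In the sodium and chloride coupled Slc6a family, Slc6a9 (GlyT1, chr4:117835258-117869305), the glycine carrier that erythroid cells use for heme, had 4.96, 5.71 and 23.5 CPM in E12, 1.43, 1.12 and 1.26 CPM in VF, and 0.497, 0.0623 and 0.238 CPM in WT. The groups do not overlap and E12 was highest. The erythroid marker sum was highest in WT, and its part here was not tested. Of its 15 genes, 4 rose in E12 against WT, Tfrc among them (3.36), and 4 fell, Rhd among them (-3.16). Beside them 23.9% of all genes rose and 18.1% fell. With the length offset 2 rose and 5 fell, beside 12% and 23.3% of all genes. Slc6a9 rose in E12 against WT (5.45, SE 0.96, edgeR adjusted p = 0.0038). Values were 4.35 without E12 5, 6.14 without WT 50 and 4.77 without WT 51, all called. With the length offset the value was 4.29 (adjusted p = 0.011). In VF against WT it was 2.29 (SE 0.86, adjusted p = 0.052). The gene shares 1429 exon bases with Ccdc24 and 46 with B4galt2, and both averaged at most 0.207 CPM in any group.

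Slc6a13 (GAT2, chr6:121300288-121337721), a carrier of GABA and taurine, had 11.8, 11.4 and 8.64 CPM in E12, 11.3, 13.8 and 9.73 CPM in VF, and 166, 39.2 and 34.8 CPM in WT. It lay below WT in every mutant library and fell in both mutants, with changes of -2.91 (SE 0.59, edgeR adjusted p = 0.0061) in E12 and -2.78 (SE 0.59, adjusted p = 0.005) in VF. WT 50 decides the size: without it the values were -1.94 and -1.80, both still called, and without WT 51 or WT 52 they were -3.52 and -3.58 in E12 and -3.39 and -3.45 in VF. Slc6a6 (TauT, chr6:91684048-91759063), the taurine carrier, had 105, 121 and 106 CPM in E12, 94.5, 104 and 90.6 CPM in VF, and 17.8, 48.5 and 80.2 CPM in WT. All mutant libraries were above WT, yet neither value was called (1.18, SE 0.44, adjusted p = 0.057 in E12; 0.98, SE 0.44, adjusted p = 0.094 in VF), and with the length offset they were -0.13 (adjusted p = 0.79) and -0.50 (adjusted p = 0.23).

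Slc6a15 (chr10:103367808-103419379), a carrier of branched-chain amino acids and proline, had 3.36, 2.59 and 5.25 CPM in E12, 19.5, 17.9 and 16.1 CPM in VF, and 4.14, 1.71 and 0 CPM in WT. VF stood above all other libraries, at 3.20 against WT (SE 1.19, edgeR adjusted p = 0.05, not called). The dopamine carrier Slc6a3 (chr13:73536128-73578672) had 0.234, 0.838 and 0.868 CPM in E12, 3.23, 2.35 and 2.56 CPM in VF, and no count in WT. It was at least 17-fold higher in E12 and at least 72-fold higher in VF on the same floor of 3 counts (adjusted p = 0.0051 and 0.0014). Slc6a20a (chr9:123636907-123678832), a proline carrier, had 0.312, 0.991 and 4.26 CPM in E12, 0, 0.186 and 0.324 CPM in VF, and 1.44, 0.561 and 9.28 CPM in WT. It fell in VF against WT (-4.44, SE 1.58, adjusted p = 0.043), with -2.81 without WT 52 and -5.26 without VF 3, and the call was lost without any one VF library, E12 2 or WT 52 (adjusted p from 0.063 to 0.12). On the other strand it shares 563 exon bases with Gm17120 and 22 with Ccr9, which had no count in WT.

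Slc6a8, Slc36a4 and Slc38a6 were tested, averaged under 10 CPM in every group and were called in no comparison of this fit. The 19 untested transporters had 2 to 104 counts over all 9 libraries, and 14 of them had none in WT. Each WT library held no count for 27.2% to 30.1% of all genes. Of the opposite-strand rows, Slc7a6os had 18.1, 21.7 and 17.5 CPM in E12, 14.8, 19.3 and 11.8 CPM in VF, and 31.5, 29.1 and 22.3 CPM in WT, and fell in VF (-0.85, SE 0.29, edgeR adjusted p = 0.036), a call lost with the length offset (-0.41, adjusted p = 0.23). It lies next to Slc7a6, which moved the other way. Slc36a1os had 0 counts in E12, 1 in VF and 23 in WT and was not tested.

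Over the 30 tested transporters, 11 rose and 3 fell in E12 against WT, where 23.9% of all genes tested rose and 18.1% fell. In VF against WT 9 rose and 9 fell, where 27.7% of all genes tested rose and 20.9% fell. The members' shares were 36.7% and 10% in E12, and 30% and 30% in VF, which in VF lie near the background for rises. Nothing particular to the carriers is read from these shares. The members' median was 0.92 in E12 and 0.95 in VF, against 0.36 over all genes in both, and the same medians followed with Slc7a8 and Slc6a3 at their bounds. Both comparisons share the WT libraries.

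With the length offset the balance moved toward falls. In E12 against WT 5 rose and 7 fell, beside 12% and 23.3% of all genes. In VF against WT 4 rose and 14 fell, beside 16.5% and 32.6% of all genes. The members' median was then -0.32 in E12 and -0.44 in VF, against -0.25 and -0.35 over all genes. Rises called with and without the offset were those of Slc6a3, Slc3a1, Slc7a8, Slc6a9 and Slc1a4 in E12, and of Slc6a3, Slc3a1, Slc7a6 and Slc7a8 in VF. All falls called without the offset, 3 in E12 and 9 in VF, were called with it too.

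Other fits ended some calls against WT. Fitting only the 2 groups compared ended those of Slc1a5 (edgeR adjusted p = 0.12), Slc3a1 (0.068), Slc7a5 (0.097), Slc7a4 (0.068) and Slc1a4 (0.058) in E12, and those of Slc6a20a (0.069), Slc3a2 (0.1), Slc1a5 (0.081), Slc43a2 (0.063), Slc36a1 (0.076), Slc7a4 (0.08) and Slc43a1 (0.061) in VF. On the deposited log2 levels, limma ended those of Slc3a1 (adjusted p = 0.062) and Slc7a5 (0.15) in E12, and of Slc3a1 (0.098), Slc36a1 (0.1), Slc7a4 (0.11) and Slc43a3 (0.11) in VF. Slc7a5 in E12 was also not called with RLE factors (0.14), without a filter (0.14) or by DESeq2 (0.12), Slc1a5 in E12 with RLE factors (0.054) or without a filter (0.079), Slc1a5 in VF without a filter (0.064), and Slc3a2 in VF by limma-voom (0.056). The calls of Slc7a6, Slc7a7, Slc7a8, Slc6a13, Slc38a2 and Slc38a10 in both mutants, of Slc7a1 and Slc6a9 in E12 and of Slc38a5, Slc7a11 and Slc6a3 in VF stayed in all these fits. So did that of Slc6a3 in E12, which the filter left out of the fit of 2 groups. The length offset is not among these fits. It ended the calls of Slc38a2 and Slc38a10 in both mutants and of Slc7a6 and Slc7a1 in E12 (edgeR adjusted p from 0.089 to 0.94).

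Other fits also added calls against WT. RLE factors, no filter and DESeq2 each added falls of Slc7a11 (adjusted p = 0.013, 0.028 and 2.8e-05) and Slc43a3 (0.023, 0.036 and 0.0021) in E12, and of Slc38a9 (0.019, 0.025 and 0.0022) in VF. Leaving out WT 50 added falls of Slc3a2 (-0.96, 0.00071), Slc43a3 (-1.29, 0.00011) and Slc7a11 (-0.91, 0.00097) and rises of Slc43a2 (4.41, 9.9e-05) and Slc6a6 (0.68, 0.013) in E12, and in VF falls of Slc38a7 (-0.96, 0.012) and Slc38a9 (-0.79, 0.014) and rises of Slc1a4 (1.98, 0.0035), Slc6a15 (4.15, 0.016), Slc6a9 (2.96, 0.02) and Slc6a6 (0.48, 0.049).

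**Figure D3:**
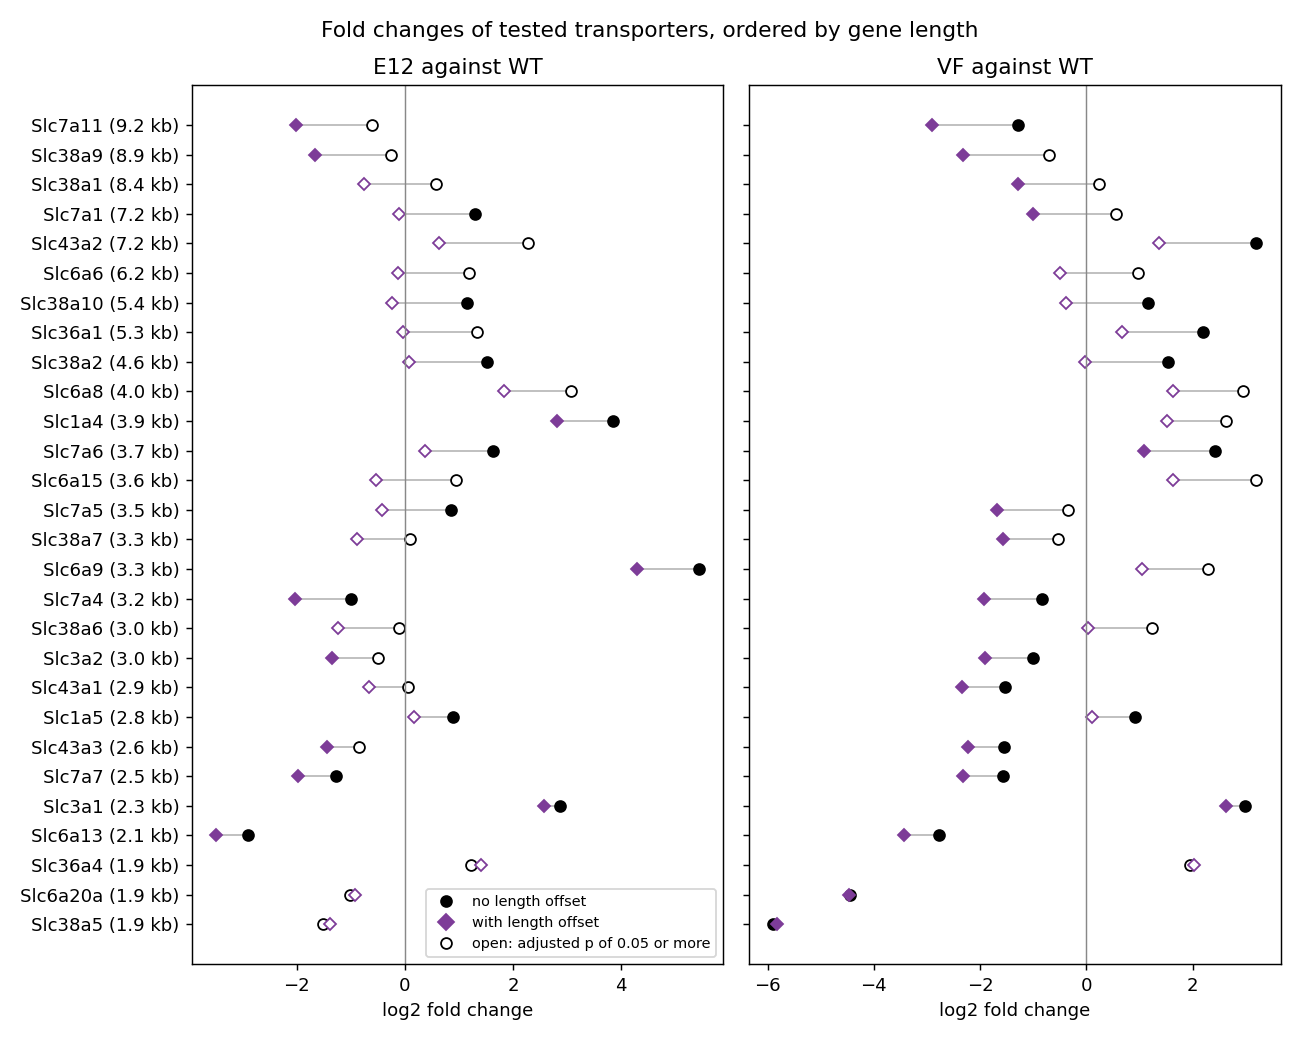
Log2 fold change against WT of 28 tested transporters, ordered from the longest gene at the top, in E12 (left) and VF (right), without (circles) and with (diamonds) the length offset; filled symbols have an adjusted p under 0.05. The offset lowers the values of long genes, such as Slc7a11, while Slc38a5 at the bottom stays at -5.89 and -5.83 in VF; Slc7a8 and Slc6a3, at 0 in WT, are left out.

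Directly between the mutants, Slc38a5 was the 1 transporter higher in E12 and 0 were lower, where 2.19% of all genes were higher and 1.02% lower. At an unadjusted p under 0.05, 6 transporters were higher (9.27% of all genes) and 3 were lower in E12 (8.48% of all genes), the lower ones being Slc6a3, Slc7a6 and Slc7a8. DESeq2 called 5 higher (6.32% of all genes) and 2 lower (6.14% of all genes). With the length offset 5 were higher (7.92% of all genes), namely Slc38a5, Slc7a1 (0.91, edgeR adjusted p = 0.034), Slc7a11 (0.91, 0.016), Slc43a3 (0.78, 0.017) and Slc43a1 (1.66, 0.009), and 0 were lower (2.64% of all genes).

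The fit of all 9 libraries shares one estimate of the spread per gene over the 3 groups. In a fit of the E12 and VF libraries alone, 12 of 29 tested transporters were higher in E12, where 25.4% of all genes were, and 6 were lower, where 22.6% were. The higher ones included the heavy chain Slc3a2 (0.53, SE 0.09, edgeR adjusted p = 0.0022), Slc7a5 (1.24, SE 0.14, adjusted p = 0.00028) and Slc43a1 (1.62, SE 0.13, adjusted p = 5.9e-05), with Slc6a9 at 3.21 (SE 0.64, adjusted p = 0.0038). The lower ones included Slc7a6 (-0.74, SE 0.11, adjusted p = 0.0011), Slc7a8 (-1.42, SE 0.38, adjusted p = 0.015), Slc43a2 (-0.89, SE 0.17, adjusted p = 0.0029) and Slc6a15 (-2.22, SE 0.28, adjusted p = 0.00043). Slc1a5, Slc38a2 and Slc38a10 were each at 0.02, with SEs of 0.14, 0.14 and 0.12 and adjusted p of 0.91, 0.91 and 0.9.

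**Figure D4:**
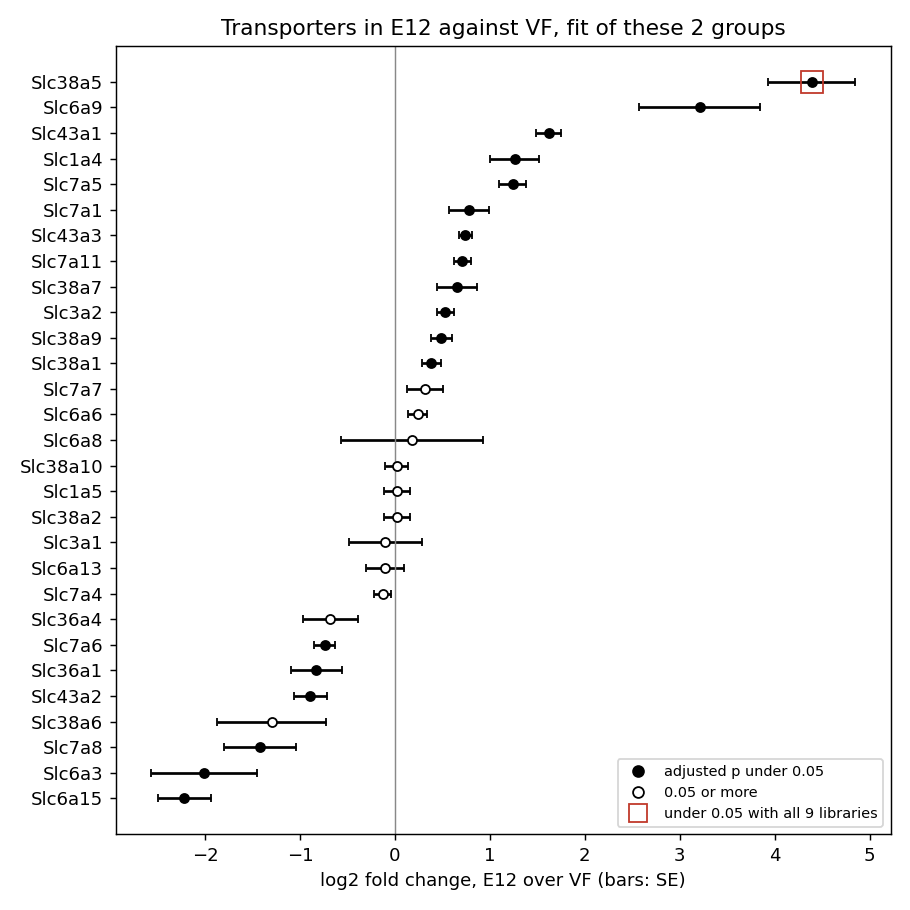
Log2 fold change of E12 over VF for 29 transporters in the fit of these 6 libraries alone, with bars of 1 SE; filled symbols have an adjusted p under 0.05 and the square marks the one also called with all 9 libraries. Values run from -2.22 for Slc6a15 to 4.39 for Slc38a5.

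The order of levels within a group changed as well. Per kilobase, E12 was led by Slc38a5 (137 ± 38.4 CPM per kb), Slc3a2 (112 ± 1.24) and Slc1a5 (94.5 ± 14.8), of which Slc38a5 and Slc3a2 overlapped while Slc1a5 stayed below Slc3a2. VF was led by Slc1a5 (95.6 ± 6.10), Slc3a2 (78.95 ± 8.13) and Slc7a6 (51.3 ± 5.53), whose ranges do not overlap. WT was led by Slc38a5 (395 ± 204), Slc3a2 (158 ± 68.5) and Slc43a3 (117 ± 50.5, with SD and n = 3 for all), whose ranges overlap between neighbours. Within each WT library, though, the order of these genes was the same. Their shares of the level summed over members were 29.7%, 14.5% and 10.9% in WT 50. They were 46.8%, 17.4% and 11.9% in WT 51, and 41.5%, 16.65% and 13.2% in WT 52.

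Summed over the members, without the length offset, the level was 701, 651 and 689 CPM per kb in E12, 479, 464 and 458 in VF, and 545, 1156 and 1165 in WT. VF lay below all others. Slc38a5 made up 15.8% to 25.5% of this sum in E12, 0.53% to 2.33% in VF, against 29.7% to 46.8% in WT. Without it the sums were 522, 548.5 and 558 in E12, 476, 453.5 and 452 in VF, and 383, 616 and 682 in WT, and VF then lay above WT 50.

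**Figure D5:**
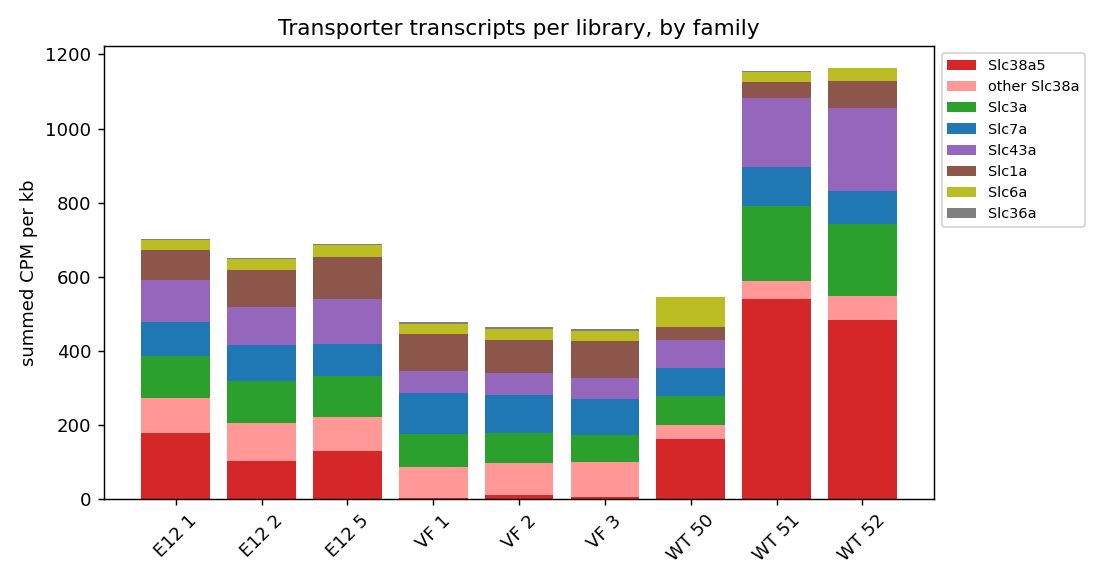
Summed level of the transporters in each library (CPM per kb, stacked by family, with Slc38a5 shown apart from the other Slc38a genes). Slc38a5 is the largest single part in WT and nearly absent in VF.

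The pathways around the carriers were read through 7 gene lists, described by their counts and medians, to be read beside the percentages and the medians over all genes tested. Genes are named by the smallest p of a comparison, so a gene named for 1 mutant may differ from WT in the other too. Without the offset 23.9% of all genes rose and 18.1% fell in E12 against WT, and 27.7% and 20.9% in VF. The counts with the length offset follow each list, beside 12% and 23.3% of all genes in E12 and 16.5% and 32.6% in VF. Medians over all genes with the offset were -0.25 in E12 and -0.35 in VF. Nothing particular to a list is read from its counts. Of 33 tested genes of lysosomal amino acid sensing to mTORC1, 10 rose and 8 fell in E12 and 8 rose and 8 fell in VF, with medians of 0.36 and -0.04, beside 0.36 over all genes in both comparisons. With the offset 3 rose and 12 fell in E12 and 5 rose and 17 fell in VF (medians -0.47 and -0.66). Sesn2, a leucine sensor, rose in E12 (3.52, SE 0.43, edgeR adjusted p = 0.00099), with 21.6 ± 2.02 CPM in E12, 9.44 ± 1.33 in VF and 1.87 ± 0.891 in WT. Fnip1, part of the folliculin complex, rose by 2.21 (adjusted p = 0.0022) in E12 and 3.04 (adjusted p = 0.00041) in VF, and the E12 call was lost with the offset (0.76, adjusted p = 0.1). Sec13 fell in VF (-1.98, adjusted p = 0.0014), and Sesn3, at 0 in WT, was at least 20.2-fold higher in E12 and at least 69.3-fold higher in VF.

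Of 18 tested genes of the GCN2 and ATF4 response, 7 rose and 2 fell in E12 and 5 rose and 5 fell in VF, with medians of 0.50 and -0.04. Offset values gave 7 and 0 in E12 and 6 and 8 in VF (medians 0.04 and -0.78). Asns, asparagine synthetase, had 454, 361 and 404 CPM in E12, 80.2, 73.2 and 82.0 CPM in VF, and 159.7, 1046 and 1039 CPM in WT. It lay lowest in VF, as Slc38a5 and Slc7a11 did, and fell in VF against WT (-3.25, SE 0.61, edgeR adjusted p = 0.0031). Ddit4 rose in both mutants (3.16 in E12, adjusted p = 0.0056; 3.25 in VF, adjusted p = 0.0034). Trib3 and Vldlr were at 0 in WT. Trib3 was called in E12, at least 254-fold higher, where E12 5 alone held 23.3 CPM against 1.80 and 5.11 in the others. In VF, Trib3 had 3.30, 1.27 and 3.49 CPM, at least 70.6-fold over WT. Vldlr was called in both mutants, at least 259-fold higher in E12 and at least 1240-fold higher in VF. Mthfd2, a mitochondrial folate enzyme, was higher in E12 than in VF (2.04, SE 0.23, adjusted p = 0.0046).

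Of 15 tested amino acid carriers of other families, 5 rose and 2 fell in E12 and 5 rose and 3 fell in VF, with medians of 1.24 and 1.27. Under the offset 4 rose and 3 fell in E12 and 2 rose and 4 fell in VF (medians 0.32 and 0.34). Slc16a10 (TAT1), which releases aromatic amino acids, had 133, 112 and 141 CPM in E12, 57.4, 55.1 and 60.95 CPM in VF, and 17.5, 25.5 and 29.0 CPM in WT. The 3 groups do not overlap, and it rose in E12 against WT (2.42, SE 0.25, edgeR adjusted p = 0.00064) and against VF (1.15, SE 0.24, adjusted p = 0.038). The mitochondrial ornithine carrier Slc25a15 rose by 2.32 (adjusted p = 0.00097) in E12 and 1.95 (adjusted p = 0.00089) in VF, where the offset ended the call (0.66, adjusted p = 0.15), and the glutamate carrier Slc25a22 by 2.45 (adjusted p = 0.0011) and 1.85 (adjusted p = 0.0015). Slc25a38, the mitochondrial glycine carrier of heme synthesis, had 111, 91.7 and 116 CPM in E12, 21.8, 32.95 and 24.9 CPM in VF, and 114, 224 and 213 CPM in WT. It fell in VF against WT (-2.79, SE 0.32, adjusted p = 0.00041) and was higher in E12 than in VF (2.00, SE 0.31, adjusted p = 0.015), as was Slc25a44 (1.41, adjusted p = 0.036), which carries branched-chain amino acids into mitochondria.

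Of 11 tested glutamine, glutamate and aspartate enzymes, 2 rose and 2 fell in E12 and 2 rose and 5 fell in VF, with medians of 0.24 and -0.50. Under the offset 0 rose and 3 fell in E12 and 1 rose and 7 fell in VF (medians -0.43 and -1.33). Glud1, glutamate dehydrogenase, rose by 1.65 (edgeR adjusted p = 0.0024) in E12 and 2.21 (adjusted p = 0.00047) in VF, with the E12 call lost under the offset (0.55, adjusted p = 0.21). Gpt, an alanine transaminase, fell in both (-2.36, edgeR adjusted p = 0.0067 in E12, and -2.75, adjusted p = 0.0026 in VF). Glul, glutamine synthetase, fell in E12 (-1.88, adjusted p = 0.0086), with means of 79.8 CPM in E12, 88.7 in VF and 293 in WT. Of 15 tested genes of branched-chain amino acid breakdown, 3 rose and 4 fell in E12 and 3 rose and 3 fell in VF, with medians of -0.14 and -0.26. Offsets gave 1 rise and 6 falls in E12 and 1 rise and 5 falls in VF (medians -0.30 and -0.75). Bcat2, the mitochondrial transaminase of leucine, isoleucine and valine, fell in both (-1.52, adjusted p = 0.0074 in E12; -2.05, adjusted p = 0.0016 in VF). Bckdha, a subunit of the branched-chain ketoacid dehydrogenase, fell in E12 (-1.17, adjusted p = 0.0046), and Pccb, of propionyl-CoA carboxylase, fell in VF (-1.74, adjusted p = 0.0038). Ppm1k, the phosphatase of that dehydrogenase, rose in both (3.09, adjusted p = 0.013 in E12; 3.77, adjusted p = 0.0051 in VF), and both calls were lost with the offset (1.48, adjusted p = 0.19; 2.01, adjusted p = 0.073).

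Of 15 tested arginine and polyamine enzymes, 2 rose and 4 fell in E12 and 2 rose and 7 fell in VF, with medians of -0.23 and -0.82. Offsets gave 2 rises and 7 falls in E12 and 1 rise and 7 falls in VF (medians -0.56 and -0.86). Odc1, the first enzyme of polyamine synthesis, had 119, 96.4 and 83.5 CPM in E12, 40.3, 37.2 and 32.6 CPM in VF, and 122, 121 and 109 CPM in WT. VF lay below all other libraries, with a fall against WT (-1.68, SE 0.22, edgeR adjusted p = 0.00068) and a higher level in E12 than in VF (1.44, SE 0.22, adjusted p = 0.014). Srm, spermidine synthase, rose by 1.96 (adjusted p = 0.0012) in E12 and 1.12 (adjusted p = 0.0056) in VF. Asl, argininosuccinate lyase, fell in E12 (-1.90, edgeR adjusted p = 0.0044), with means of 52.7 CPM in E12, 76.6 in VF and 197 in WT. Azin1, which spares Odc1 from antizyme, rose in E12 (2.27, adjusted p = 0.0046), with 149 CPM in E12, 89.6 in VF and 30.7 in WT. The antizyme Oaz1 fell in VF (-2.36, adjusted p = 0.007), with 290 CPM in E12, 300 in VF and 1536 in WT.

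Of 13 tested cystine, cysteine and glutathione genes, a list beside the cystine importer Slc7a11, 2 rose and 1 fell in E12 and 4 rose and 3 fell in VF, with medians of 0.13 and -0.60. Offsets gave 2 rises and 2 falls in E12 and 3 rises and 5 falls in VF (medians -0.20 and -0.78). Gclm, the modifier subunit of glutamate-cysteine ligase, rose by 2.94 (edgeR adjusted p = 0.00044) in E12 and 2.00 (adjusted p = 0.0005) in VF, and glutathione reductase Gsr by 2.74 (adjusted p = 0.0014) and 2.56 (adjusted p = 0.00096). Chac2, which breaks glutathione down, fell in both (-1.08, adjusted p = 0.046 in E12; -2.24, adjusted p = 0.0023 in VF), and the E12 call was lost with the offset (-0.20, adjusted p = 0.69).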

How the data were processed

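RNA-seq libraries of sorted mouse bone marrow MEP (3 each of E12, VF and WT) were read as the authors deposited them, as raw counts of 17769 genes and as log2 expression levels of the same genes. The submitters' processing notes name STAR, limma and the mouse build GRCm38 (mm10), with no version or role. Per the labels' protocols, RNA was extracted with PicoPure and libraries were made with Smart-Seq2, which keeps no strand, so reads of overlapping genes on opposite strands cannot be separated. No row lacked a gene symbol, and 0 columns belonged to samples not in the labels.

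The main test was edgeR 4.0.16 (R 4.3.3) quasi-likelihood on the deposited counts, with filterByExpr, TMM scaling, all 9 libraries and group as the only term, adjusted by Benjamini-Hochberg over 13608 genes and called under 0.05. The alternatives were RLE size factors, no filter on low counts, DESeq2 1.42.0, limma-voom (limma 3.58.1), limma on the deposited log2 levels, only the 2 groups compared, offsets for gene length (lowess of log CPM on log length in each library, span 0.3, prior count 0.5), each library left out, WT 50 and E12 5 left out together, and a replicate block. The edgeR fit was tried on simulated data with 200 changed genes per comparison. Of 2-fold changes it found 7% in E12 against WT, 2% in VF against WT and 1% in E12 against VF. Of 8-fold changes it found 70%, 69% and 65%. The simulation changed 200 of 13608 genes, around means shared by all groups. The data had far more calls against WT, such as 3770 rises in VF, which makes the adjusted cutoff less strict there. These shares are thus not the power of the fits above. A gene that was not called may still differ.

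Exon overlaps are from the GENCODE annotation and promoters and gene coordinates from RefSeq, both on GRCm38. Members averaging at least 10 CPM in a group, heavy chains and called members are named; of the pathway lists, up to 3 called genes with the smallest p per comparison. Members, lists and tests were chosen with earlier results of these data known. A bound on a fold uses a floor of 3 counts over the group and covers counting error only.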

Additional observations from a re-analysis of the deposited data

Results flagged for a closer look

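Slc38a5 differed between the mutants under the same contrast with WT, by 4.36 on the log2 scale for E12 against VF (SE 0.65, edgeR adjusted p = 0.014). The glutamine carrier was higher in 3 of 3 E12 libraries than in any VF library. The difference itself was tested, and it rests on shared WT libraries only through the estimate of the spread. In the fit of the E12 and VF libraries alone it was 4.39 (SE 0.46, adjusted p = 0.00019). The erythroid marker sum differs in the same direction, and its part in the difference was not tested.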

How the results depend on the processing

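The number of calls depended on the fit. Transporters higher in E12 against WT were 11, but 6 with only the 2 groups compared and 5 with the length offset. Those lower were 3, but 6 with RLE size factors, without a filter or with DESeq2, 7 with the length offset, 8 without WT 50 and E12 5 together, and 2 to 7 with single libraries left out. Those higher in VF against WT were 9, but 14 with limma-voom and 4 with the length offset; those lower were 9, but 5 with only the 2 groups, 14 with the length offset and 5 to 11 with single libraries left out. In E12 against VF, 1 was higher, but 5 with DESeq2, 2 with limma-voom, 4 on the deposited levels, 12 with only the 2 groups, 5 with the length offset, 7 without WT 50 and E12 5 and 0 to 9 with single libraries left out. The 0 lower became 2 with DESeq2, 1 with limma-voom, 3 on the deposited levels, 6 with only the 2 groups and 0 to 3 with single libraries left out. The calls over all genes moved as well, from 298 higher and 139 lower to 860 and 835 with DESeq2, 411 and 513 with limma-voom, 899 and 743 on the deposited levels, 3388 and 3024 with only the 2 groups, 1078 and 359 with the length offset and 1792 and 1498 without WT 50. Against WT, all genes called higher in E12 were 3251, but 1628 with only the 2 groups and 1630 with the length offset. Those lower were 2466, but 2846 (RLE), 2645 (no filter), 3341 (DESeq2), 3167 (length offset) and 2944 (without WT 50 and E12 5). All genes called higher in VF were 3770, but 4944 with limma-voom and 2242 with the length offset. Those lower were 2842, but 2173 with only the 2 groups and 4436 with the length offset. Where an all-gene count is given, the transporter count moved the same way, except those lower in E12 against VF with the length offset. These stayed at 0, while all genes went from 139 to 359.

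Among transporters called with or without it, the length offset turned the sign of some fitted values. In VF against WT these were Slc38a1 (-1.29), Slc7a1 (-1.01), Slc38a2 (-0.02) and Slc38a10 (-0.39). In E12 against WT they were Slc7a1 (-0.10), Slc7a5 (-0.42) and Slc38a10 (-0.23). Only Slc38a1 and Slc7a1 in VF were called with the offset (edgeR adjusted p = 0.0085 and 0.0056). The others, with adjusted p from 0.089 to 0.94, were calls lost and not directions shown to reverse. On the deposited levels the sign of Slc3a2 turned in VF against WT (0.17, limma adjusted p = 0.75). Leaving out WT 50 and E12 5 moved Slc43a1 in E12 against WT from 0.05 to -0.52. The offset by construction removes the relation to length; beyond that the cause was not tested.

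With a replicate block, for the numbers 1 and 2 that E12 and VF share, 0 transporters were called between them, as were 0 genes in all, and Slc38a5 was at 4.69 (adjusted p = 0.84). The shared numbers do not pair the samples by the labels, and the deviations of the same-numbered libraries correlated at 0.01 and 0.103. No paired analysis was possible against WT because its numbers are not shared. The median over all genes, 0.36 against WT, was 0.17 (E12) and 0.21 (VF) with RLE factors and 0.63 and 0.65 with limma-voom. Low counts limit Slc3a1, Slc6a3 and Slc6a20a.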
